A study of Cavia porcellus with 72 samples.

Results

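Single CpGs annotated to gene promoters were examined in the hippocampus of young female guinea pigs from 3 generations after prenatal treatment with a synthetic glucocorticoid. The members were all rows of the CpG tables whose annotation was promoter-TSS, the class that Homer gives to sequence from 1000 bases upstream to 100 bases downstream of an annotated transcription start site. They numbered 23602 of 211167 rows, with 8495 of 90611 in F1, 6268 of 46492 in F2 and 8839 of 74064 in F3. Every listed CpG differed by at least 2 percentage points, in either direction, in the authors' comparison of sGC with control animals. This floor is the smallest listed difference of each generation, rounded down. The rule by which the authors listed a CpG is not known here. The paper itself calls far fewer single CpGs significant in each generation, over all annotation classes and with a larger required difference. The tables are therefore lists of CpGs with some difference between the groups, not of all CpGs sequenced. As measurements they hold only the columns of that comparison, which were not used here, so that no methylation level, direction or test is given.

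Betamethasone (sGC) or vehicle (control) was given to pregnant guinea pigs, and females of the F1, F2 and F3 generations were sampled at postnatal day 40. The F1 animals were exposed in the womb. F2 came from F1 males, and F3 from F2 males, mated with females from outside the experiment, without further treatment. The sample labels put 6 control and 6 sGC bisulfite samples in each generation, although the series' design text gives another split for F3. DNA was enriched with a custom probe set for promoters and enhancers before sequencing, so the positions that could be listed were set first by the probes and then by read coverage.

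A CpG is a cytosine followed by a guanine, the main site of DNA methylation in mammals. Around the start sites of many genes CpGs are dense and mostly free of methylation, and methylation across such a promoter usually goes with a silent gene. Methylation in gene bodies and between genes is the more usual state. A single CpG in a promoter is a small part of such a domain, which is why its distance from the start site and its neighbours are given here.

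The tissue was checked by RNA-seq of the same study, in 36 libraries with 13507449 to 19767033 reads counted. By the study's methods, DNA and RNA were extracted together from the right hippocampus, but the numbers of RNA and DNA samples differ and were not matched by animal here. PROX1, a transcription factor of dentate granule neurons, had a median of 108 counts per 1e+06 reads (CPM) over the libraries and a lowest value of 86.3, and NEUROD6, a factor of pyramidal neurons, a median of 142 and a lowest value of 101. DRD2, a dopamine receptor abundant in the striatum, lay between 1.85 and 5.02 CPM, but PPP1R1B and RGS9, signalling genes that are also high in striatal neurons, lay between 53 and 80.1 and between 16 and 24.5 CPM. Of the other lists, GFAP of astrocytes lay between 381 and 836 CPM, MOG of oligodendrocytes between 165 and 325, CX3CR1 of microglia between 46.5 and 74.7, and DCN of meningeal fibroblasts between 10.1 and 62.8. Of the choroid plexus genes, FOLR1, a folate receptor, lay between 4.7 and 13.2 CPM, whereas TTR, which carries thyroid hormone in cerebrospinal fluid, ranged from 0.943 to 659 CPM with a median of 19.5 over the 12 F2 libraries and was not analysed here in F1 and F3. The part of choroid plexus in the promoter CpG lists was not tested. Both markers of hippocampal neurons were thus detected in every library.

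The 3 tables did not cover the same sequence. The F2 table ended at scaffold_86 and held the 87 scaffolds numbered from 0, while the F1 and F3 tables reached scaffold_3050 and scaffold_3088. On the scaffolds above 86 lay 2402 promoter CpGs in F1, or 28.3%, and 2719 in F3, or 31.7%. CpGs of the other annotation classes lay there more often, at 43.9% in F1 and 46.5% in F3. In F3, 253 promoter rows repeated another row, which left 8586 distinct positions, and in F1 17788 rows on 796 scaffolds carried no annotation. Counts of distinct promoter CpGs on the scaffolds common to every table were close, with 6093 in F1, 6268 in F2 and 5867 in F3. The larger totals of F1 and F3 thus came from scaffolds that were not analysed here in F2.

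Promoter CpGs made up 11.7% of distinct annotated CpGs in F1, 13.5% in F2 and 12.3% in F3. They belonged to 3148 genes in F1, 2592 in F2 and 3022 in F3, counted by Ensembl identifier. Their share varied along the genome. Over the 60 scaffolds with at least 200 listed CpGs in every table, the share ranged from 4.07 to 31.7% in F1 with a median of 14.6%. In F2 it ranged from 3.46 to 25.8% with a median of 14.1%, and in F3 from 2.92 to 35% with a median of 16.1%. Scaffold_25 had the highest share in every generation, with 182 of 575 listed CpGs in F1, 170 of 658 in F2 and 185 of 529 in F3. Scaffold_73 stood near the low end, with 35 of 859, 35 of 880 and 33 of 822. How many CpGs of each class were sequenced deeply enough on these scaffolds is not in the tables, so these are shares of what was listed and not rates.

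Within promoters the listed CpGs were crowded around the start site itself, where the promoter probes lay. By the study's methods, these probes covered a stretch centred on the start site and shorter than the annotated span. A distance to the start of the annotated gene, inside the annotated span, was available for 97.6% of promoter CpGs in F1, 97.8% in F2 and 96.7% in F3. Negative distances are upstream of the start and positive ones inside the transcript. The median distance was 2 bases in F1, 8 in F2 and 5 in F3, and the quartiles stood at -81 and 46 bases in F1, at -59 and 53 in F2 and at -77 and 47 in F3. Within 250 bases of the start lay 85.9%, 90.4% and 85% of them in F1, F2 and F3. Downstream of the start lay 50.5% in F1, 54.6% in F2 and 52.5% in F3. The annotated span is 10 times longer upstream than downstream, but the promoter probes did not cover all of it.

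On the common scaffolds the profile had the same outline in every generation. The fullest 25-base bin was the first one downstream of the start, with 1052 CpGs in F1, 1023 in F2 and 1096 in F3. From 50 bases upstream to 100 bases downstream lay 73.1%, 71.7% and 78.1% of the CpGs in F1, F2 and F3. The stretch from 1000 to 500 bases upstream, which is more than 3 times as long but beyond the probes centred on the start, held 3.41%, 3.86% and 3.14%. The profile was flatter on the scaffolds above 86, where the same near stretch held 48.6% in F1 and 47.1% in F3 and the far one 13.5% and 13.7%. The profiles count listed CpGs only, since the tables do not give how many were sequenced at each distance. The part of probe placement in their outline was not tested.

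**Figure D1:**
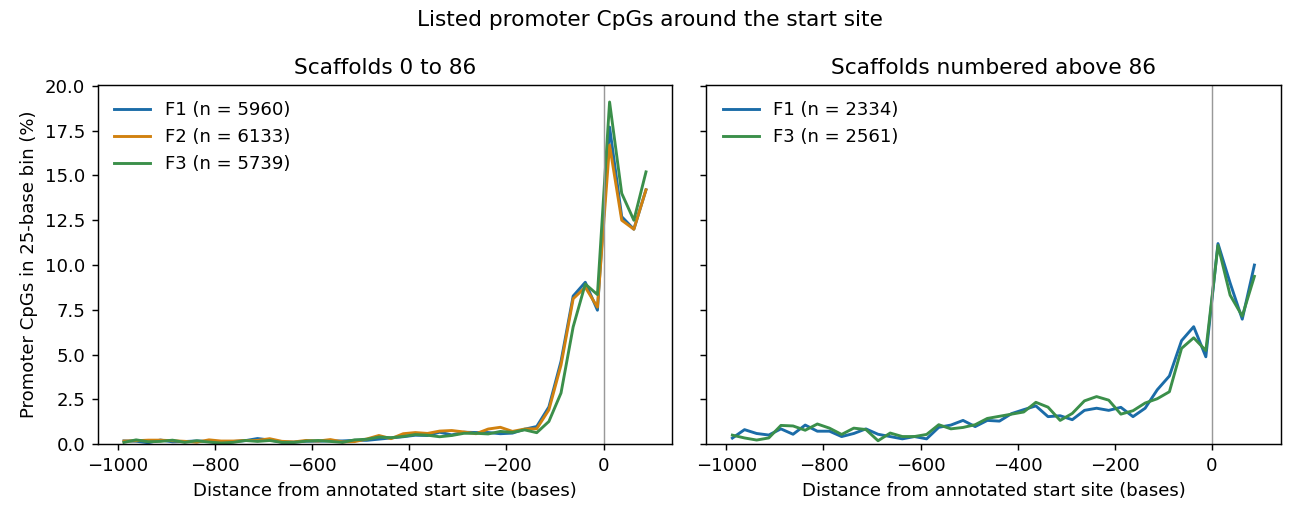
Listed promoter CpGs by distance from the annotated start site (x axis, bases, negative upstream), as a percentage of those with a distance in each 25-base bin (y axis), with 1 line per generation. On scaffolds 0 to 86 (left) the lines of F1, F2 and F3 run close together and peak in the first bin downstream of the start, and on the other scaffolds (right, F1 and F3) more of the CpGs lie far upstream.

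Neighbouring listed CpGs stood close together. On the common scaffolds, the median gap between neighbours of 1 promoter was 24 bases in F1, 24 in F2 and 21 in F3. Gaps of 10 bases or fewer made up 27.6%, 29.2% and 30.9% of 3622, 3676 and 3489 neighbouring pairs. Directly adjacent positions, which could be the 2 strands of 1 CpG, were few, with 18 pairs in F1, 11 in F2 and 10 in F3.

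Most promoters nevertheless held few listed CpGs. A single one was listed in 1201 promoters in F1 (38.2%), 1071 in F2 (41.3%) and 1179 in F3 (39%), and the median was 2 in every generation. At least 5 were listed in 427 promoters in F1, 305 in F2 and 444 in F3, and these held 38%, 31% and 42.8% of the promoter CpGs. At least 20 were listed in 15 promoters in F1, 3 in F2 and 22 in F3. Of these, 12 in F1 and 18 in F3 lay on scaffolds above 86. Among the 3 in F2 was a gene on scaffold_24 whose 24 CpGs lay at more than 1 start. On the common scaffolds the mean per promoter was 2.47 in F1, 2.42 in F2 and 2.47 in F3, so that the generations differed little in crowding where all could be compared.

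**Figure D2:**
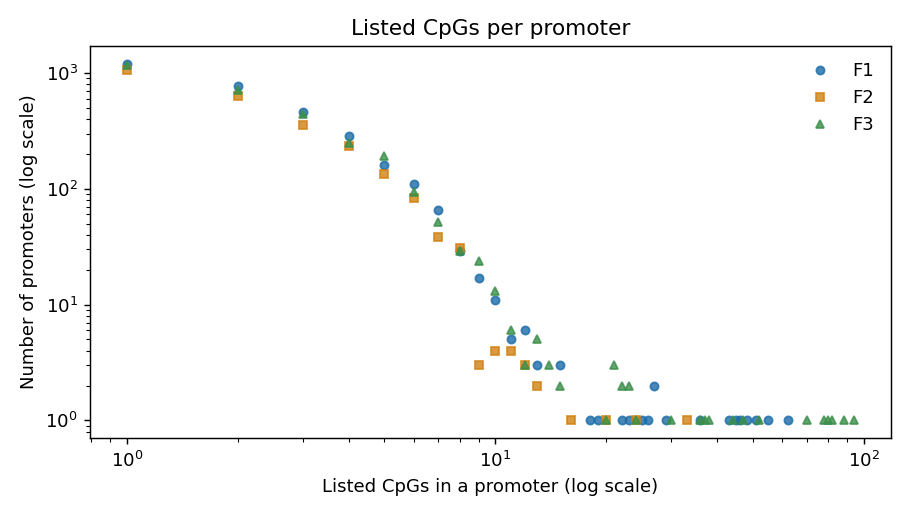
Number of promoters (y axis, log scale) by the number of listed CpGs they hold (x axis, log scale), with circles for F1, squares for F2 and triangles for F3. The counts fall steeply from single CpGs in every generation, and the tail of promoters with at least 20 CpGs reaches 62 in F1, 33 in F2 and 94 in F3.

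The most crowded promoters of F1 and F3 lay on 3 scaffolds, 537, 927 and 2369, that together held 440 promoter CpGs in F1 (5.18%) and 727 in F3 (8.47%). Coordinates are those of the cavPor3 assembly, and the range given for a promoter runs from its first to its last listed CpG. On scaffold_927, 472 of 1316 listed CpGs in F3 and 202 of 706 in F1 were promoter CpGs, in 8 promoters that all lay within the first 10 kilobases. The fullest promoter, of the minus-strand gene ENSCPOG00000029136 with its start at base 5264, held 45 CpGs in F1 and 94 in F3 at scaffold_927:5176-6255, of which 31 were the same. A plus-strand start at base 7085 had 43 in F1 and 88 in F3, with 36 the same. A minus-strand start at base 8192 had 46 in F1 and 82 in F3, with 31 the same. A plus-strand start at base 2133 had 25 and 80, with 15 the same. Each of these 4 promoters held more listed CpGs in F3 than in F1. All but the promoter at base 8192 were named by their counts in F3 alone, so this order is in part built into the choice.

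On the other crowded scaffolds the order was mixed. Both promoters named on scaffold_2369, and the promoter at base 328 on scaffold_537, were named by their counts in F1 alone. Such a choice favours a higher count in F1. On scaffold_537, a minus-strand start at base 3259 had 62 CpGs in F1 and 78 in F3, with 39 the same, and one at base 328 had 48 and 70, with 28 the same. On scaffold_2369 the order was the opposite, with 55 in F1 and 44 in F3 for a minus-strand start at base 4436, and 51 and 38 for one at base 2210. There, 37 and 28 CpGs were the same. Most distances listed in F1 for the start at base 4436 were also listed in F1 for the start at base 2210. Similarity of sequence between these promoters was not tested, so their counts may not be independent. The share of F1 CpGs that were listed again in F3 ran from 54.9 to 83.7% over the promoters named on the crowded scaffolds. Listed CpGs were spread along the upstream kilobase, and from 0 to 23% of them in each promoter lay between 50 bases upstream and 100 bases downstream of the start.

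Among promoters on the common scaffolds, the fullest in F2 was that of ENSCPOG00000023104, at scaffold_9:59224635-59225638, with its start at base 59224725 on the minus strand. It held 29 listed CpGs in F1, 33 in F2 and 23 in F3, 62 different ones in all. Only 2 of these were listed in every generation and 19 in 2 generations. The generations therefore listed mostly different CpGs across the same kilobase. A promoter with its listed CpGs in a shorter stretch, at scaffold_68:8856330-8856714 with a minus-strand start at base 8856397, held 15, 20 and 10 in F1, F2 and F3. Of its 27 different CpGs, 5 were listed in every generation. All of the CpGs listed in every generation there lay between bases 8856370 and 8856519. Another promoter, at scaffold_37:215532-216510 with a plus-strand start at base 216449, held 8, 13 and 7 CpGs, with 3 of 19 in every generation. A gene on scaffold_24 with CpGs at more than 1 annotated start had 27, 24 and 21, with 4 of 51 in every generation, and another on scaffold_37 had 12, 16 and 21, with 2 of 36.

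**Figure D3:**
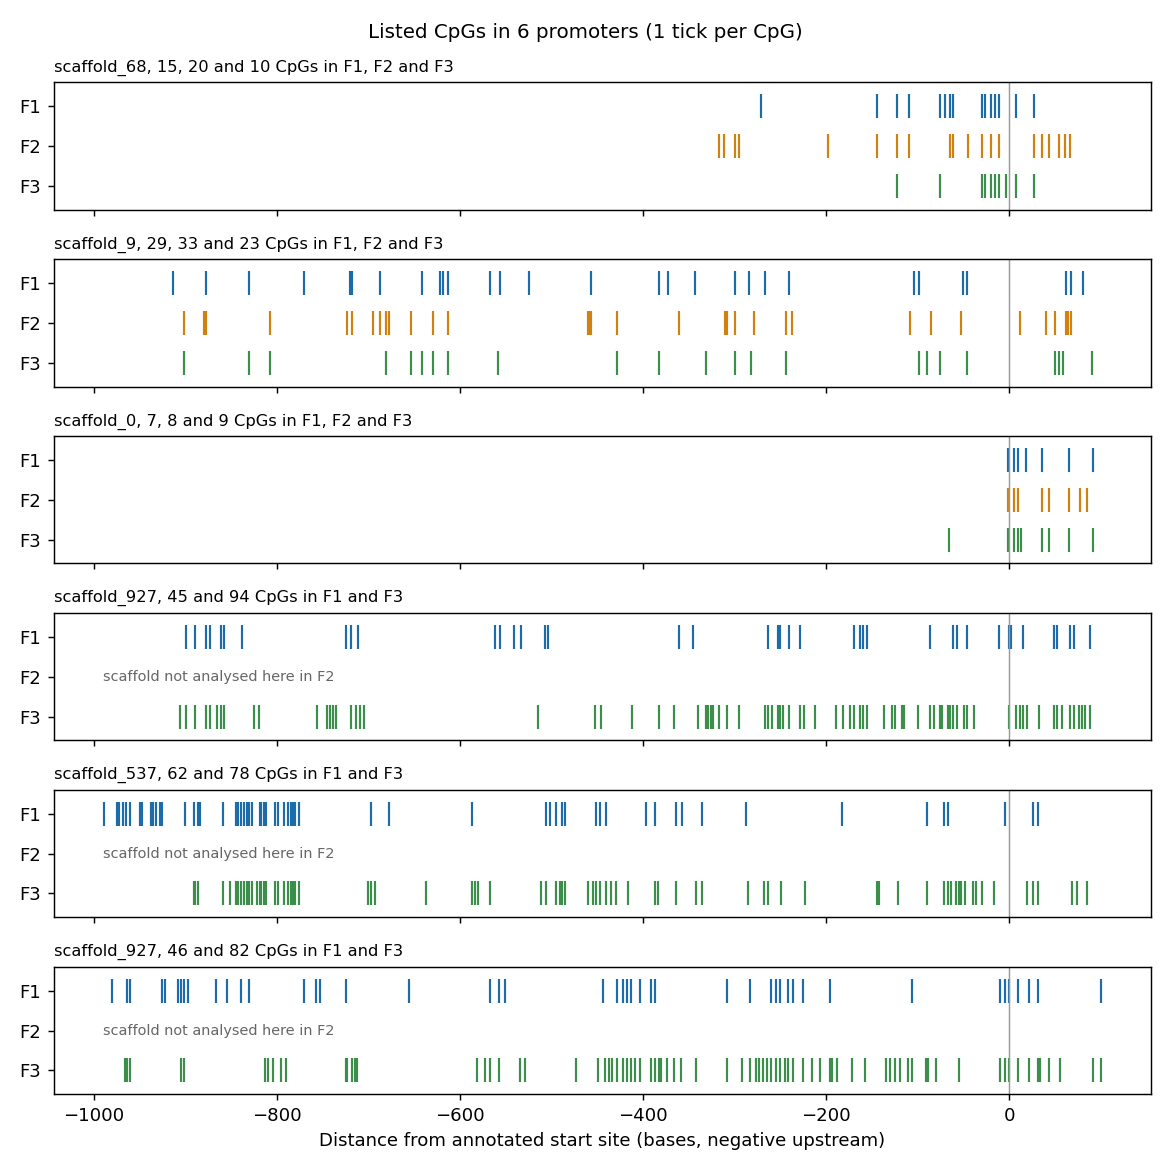
Positions of listed CpGs in 6 promoters, as 1 tick per CpG against the distance from the annotated start site (x axis, bases), with 1 row per generation. In the promoters on scaffolds 68 and 0 the ticks crowd near the start and many line up between generations, in the one on scaffold_9 they spread over the upstream kilobase with few aligned, and on scaffolds 927 and 537 the F3 row is denser than the F1 row.

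The comparison across generations counts how many listed CpGs were listed again in another generation. Whether the same sites were changed in descendants as in the exposed generation cannot be told from it. The CpGs sequenced in every generation are not known here. On the common scaffolds, 13609 different promoter CpGs were listed in at least 1 generation. Of these, 9766 (71.8%) were listed in 1 generation, 3067 (22.5%) in 2 and 776 (5.7%) in every one. F1 and F2 shared 1869 CpGs, which was 30.7% of F1 and 29.8% of F2. F1 and F3 shared 1735, which was 28.5% of F1 and 29.6% of F3. F2 and F3 shared 1791, which was 28.6% of F2 and 30.5% of F3. The 3 overlaps were of similar size, and F1 and F3 shared no larger part than generations that follow each other. Being listed again says nothing of the direction of the difference, which was not used.

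Promoter CpGs were listed again somewhat more often than CpGs elsewhere. In gene bodies, 1164 of 27384 different CpGs (4.25%) were listed in every generation and 17.2% in 2. In intergenic sequence the values were 2731 of 59480 (4.59%) and 16.5%. On the scaffolds above 86, F1 and F3 shared 925 promoter CpGs, 38.5% of F1 and 34% of F3, against 30.6% and 30.3% in the other classes. No test was made of these differences, because CpGs of 1 promoter share their reads and animals and are not independent. The shares are of listed CpGs, as the tables do not give how many were sequenced deeply enough in every generation.

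**Figure D4:**
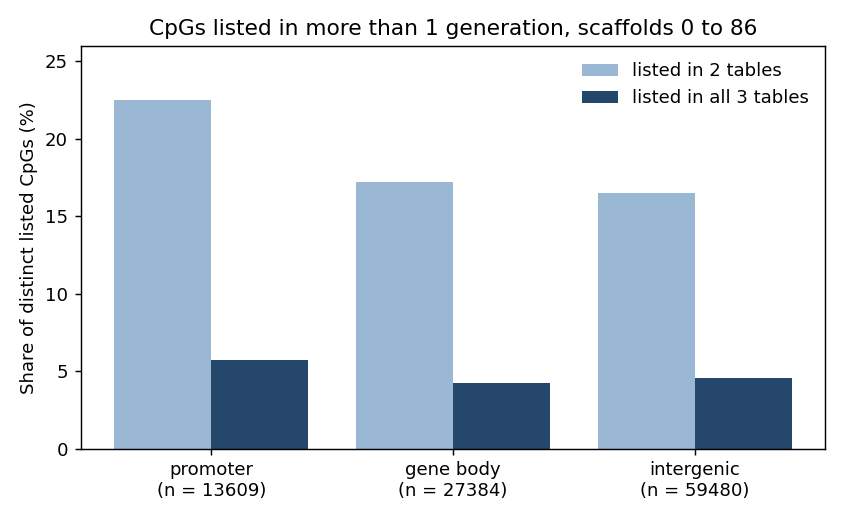
Share of different listed CpGs (y axis, %) found in 2 tables (light bars) and in all 3 tables (dark bars) for promoters, gene bodies and intergenic sequence on scaffolds 0 to 86. Promoters have the tallest bars of both kinds, at 22.5 and 5.7%.

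Recurrence was highest just downstream of the start. From the start to 50 bases inside the transcript, 285 of 3964 promoter CpGs (7.19%) were listed in every generation, and from 51 to 100 bases 232 of 3335 (6.96%). In the 50 bases upstream the share was 5.04%, from 51 to 100 bases upstream 3.78%, and farther upstream it lay between 2.56 and 3.25%. The median distance was 1 base for CpGs listed in 1 generation, 17 for those in 2 and 24 for those in every one. The share in more than 1 generation did not fall steadily with distance: it was 12.8% from 251 to 500 bases upstream but 22.8% beyond, where 492 CpGs were listed.

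**Figure D5:**
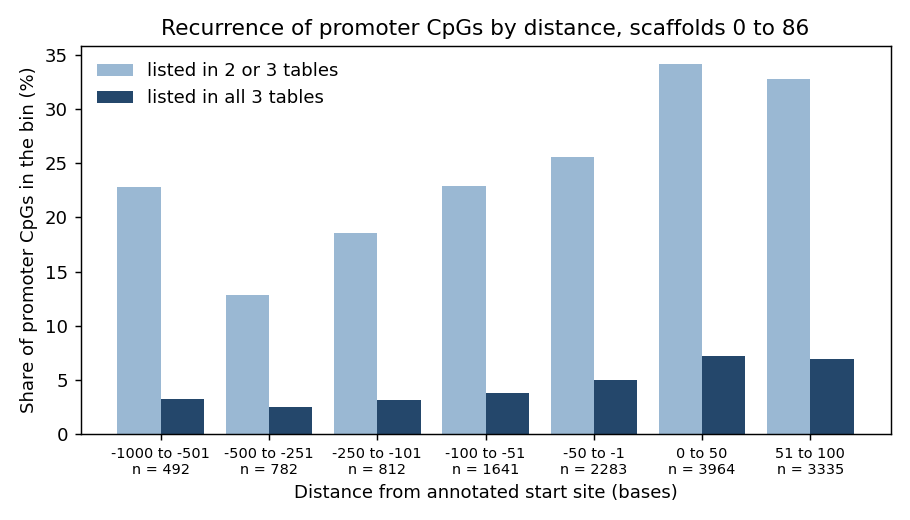
Share of promoter CpGs in each distance bin (y axis, %) listed in 2 or 3 tables (light bars) and in all 3 (dark bars), by distance from the annotated start site (x axis, bases), with the number of different CpGs under each bin. Both bars are tallest in the 2 bins downstream of the start, with 7.19 and 6.96% in all 3 tables.

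Recurrence also went with crowding. In promoters where 1 CpG was listed over the 3 tables, 3.27% of CpGs were listed in every generation. The share was 4.5% with 2 to 3 CpGs, 5.37% with 4 to 6, 6.87% with 7 to 10 and 6.73% with 11 to 62. Crowding and distance from the start move together and were not separated. Crowding was also counted over the same 3 lists as recurrence, so the measures are not independent.

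At the level of the promoter rather than the CpG, the overlap was larger. This rise is in part built in, because a promoter counts when any of its CpGs is listed. The same share was not counted for gene bodies or intergenic sequence. Of 3415 promoters on the common scaffolds with a listed CpG in any generation, 1580 (46.3%) had one in every generation. These were 63.9% of the promoters of F1, 61% of F2 and 66.4% of F3. In 606 of the 1580 (38.4%) the same CpG was listed in every generation, and in the other 974 each generation listed CpGs of the same promoter without 1 common to every table. A single common CpG was found in 475 promoters, 4 or more in 8, and the most was 5.

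The promoters with 5 CpGs in common were that on scaffold_68 described above and one at scaffold_0:73067885-73068043. The latter has a plus-strand start at base 73067951 and held 7, 8 and 9 CpGs in F1, F2 and F3, 12 different ones in all. Its common CpGs lay between bases 73067950 and 73068016, from just upstream of the start into the transcript. Scaffold_13 had 2 promoters with 4 in common. One, at scaffold_13:36908318-36908404 with a minus-strand start at base 36908410, held 6, 5 and 6 CpGs, and its 6 CpGs of F1 were the 6 of F3. The other, at scaffold_13:1029434-1029975 with a minus-strand start at base 1029532, held 15, 13 and 10, with 4 of 25 in common. A promoter at scaffold_65:5184021-5184115 held 6 CpGs in each generation, 4 of them in common, between bases 5184021 and 5184108, with the start site at base 5184022. Promoters at scaffold_69:6548916-6549108 and scaffold_75:7023041-7023286 had 4 of 10 and 4 of 12 in common, and one at scaffold_27:16018325-16018491 had 3 of 11. In most of these promoters the listed CpGs formed short clusters at the start site rather than long spreads. Taken over all generations, the starts at bases 73067951 and 5184022 shared listed distances of -1, 5, 10, 36 and 65 bases. The rest of their 12 and 9 different CpGs lay at distances that were not exactly the same. Some of these stood side by side, with 77, 85 and 92 bases in the first promoter against 78, 86 and 93 in the second. Similarity of sequence between promoters was not tested, so they may not be independent. The paper relates most significant single CpGs of each generation to small non-coding RNA genes. Whether these promoters belong to such genes was not tested.

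The authors also compared the groups over windows of 100 bases placed every 50 bases. On the common scaffolds, 332 of 6093 promoter CpGs (5.45%) lay inside a listed window of the same generation in F1, 328 of 6268 (5.23%) in F2 and 291 of 5867 (4.96%) in F3. CpGs of gene bodies lay inside one at 7.39%, 7.98% and 8.74%, and intergenic CpGs at 7.76%, 7.65% and 8.73%, higher than promoter CpGs in every generation. From the side of the windows, 210 of 1870 promoter windows in F1 (11.2%), 198 of 1941 in F2 (10.2%) and 185 of 1499 in F3 (12.3%) held a listed promoter CpG. Most listed promoter CpGs thus stood outside the listed windows.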

How the data were processed

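Hippocampal DNA was bisulfite treated, enriched with a custom capture and sequenced. Reads were trimmed by the authors with Trimmomatic 0.32, aligned to cavPor3 with BSMAP 2.74, cleared of duplicates with Picard 1.93, and compared between sGC and control within each generation with methylKit 1.4.0 in R 3.2.3 at a minimum of 10 reads per CpG, then annotated with HOMER 4.6. The deposited CpG and window tables hold the authors' differences, p-values and q-values. These were not used, except to read the smallest listed difference of the CpGs, at least 2 percentage points. RNA values were raw counts per gene as deposited by the authors, and were divided here by each library's total and scaled to counts per 1e+06 reads, only for the tissue check, with marker lists for neurons, glia, choroid plexus, meninges and striatum. Samples were grouped by their labels.

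Promoter rows were taken by annotation, and the gene was the one in the annotation's brackets. F1 starts were lowered by 1 base to match the other tables. Distances were used where the nearest start was that of the same gene and the distance lay within the annotated span. Python 3.11.15, numpy 2.4.6, pandas 2.3.3 and matplotlib 3.10.9 were used, and the counting steps were tested on simulated data. Named promoters were the 5 with most listed CpGs in each generation and the 10 with most CpGs in every generation, and 2 identifiers are given, because gene symbols were not paired with them here. For that reason genes of the study's a priori list were not looked up, and the planned tests of RNA counts on genes with a listed promoter CpG were not made. Members and lists were chosen with earlier results of these data known.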

Additional observations from a re-analysis of the deposited data

Results flagged for a closer look

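In 3 of the marker levels checked, a library stood apart from its group by Dixon's limit. DRD2 was 1.85 counts per 1e+06 reads in F3 control replicate 4, below the other F3 control libraries, CX3CR1 was 74.7 in F1 sGC replicate 4, above the other F1 sGC libraries, and RGS9 was 18.6 in F2 control replicate 5, below the other F2 control libraries. Chance passes that limit in about 1 of 20 groups. The limit was applied to every marker gene with levels given above, in every RNA group that had values. With that many checks, several passes can come from chance alone. None of the 3 genes enters a comparison of promoter CpGs.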

How the results depend on the processing

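The number of promoter CpGs in F3 was 8839 as deposited and 8586 without repeated rows. It was 5867, also without repeated rows, on the scaffolds that every table covers, a setting added after seeing the data. Promoter CpGs listed in every generation numbered 776, but 2 with starts as deposited, because F1 starts differ by 1 base, and 1580 when matched by gene instead of position. Other counts moved by less than 1.5 times when only CpGs within 250 bases of the start were kept or neighbouring cytosines were counted once. No paired analysis was possible because the CpG tables hold no values per animal, and animals could not be left out in turn for the same reason. The alternatives planned for RNA (other tests, normalizations, filters and sets of libraries) were not run, because gene identifiers and symbols were not paired here. Depth per CpG is unknown beyond the minimum of 10 reads.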
